A study of Homo sapiens with 14 samples.

Results

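The genes of cholesterol and fatty acid synthesis were followed in SH-EP cells, an established human neuroblastoma line, as a list of 33 genes matched by symbol. All 33 were found among the 61533 genes of the count table and all 33 passed the filter on low counts, which kept 16056 genes. They fall into 5 regulators, 19 genes of the sterol arm and 9 genes of the fatty acid arm. Polyadenylated RNA was sequenced from a line labelled n-Myc SPARK-ON and from a line labelled n-Myc control, which lacks SPARK-ON. Each line was given lenalidomide or DMSO, its solvent. The study's design describes the SPARK-ON line as a single clone that carries n-Myc below its threshold for phase separation, and lenalidomide as the agent that induces phase separation with no change in n-Myc concentration. Each line and treatment had 3 libraries, except the control line with lenalidomide, which had 2. The labels give no dose, and mark each treatment only as "ON". Both lines are named for n-Myc, and a difference between the lines cannot be told apart from a difference between clones.

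Cells make cholesterol from acetyl-CoA through mevalonate, farnesyl diphosphate, squalene and lanosterol, and make fatty acids from the same acetyl-CoA through malonyl-CoA, followed by elongation and desaturation. Transcription of both arms is driven by the sterol regulatory element binding proteins, encoded by SREBF1 and SREBF2. These are held in the endoplasmic reticulum, where SCAP escorts them towards activation and INSIG1 and INSIG2 retain them when sterols are plentiful. INSIG1 is itself a target of these factors, as are most enzymes of the sterol arm and the desaturases and elongases of the fatty acid arm.

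Total counts lay between 14647340 and 21511684 in 10 libraries, and SPARK-ON lenalidomide replicate 3 had 6614671. That library stood apart on the second principal component. The third split the control line, with DMSO replicate 1 (38.9) and lenalidomide replicate 2 (16.6) apart from the other control libraries (-20.8 to -15.1). The control lenalidomide libraries thus lay on opposite sides of it. MYCN itself did not pass the test between the lines in DMSO (log2 change -0.09, SE 0.082, adjusted p = 0.404 by edgeR). The 12 markers of mesenchymal neuroblastoma cells, the type SH-EP is known as, all passed the filter, at a summed 1530 to 1727 CPM in SPARK-ON libraries and 2939 to 3120 CPM in control libraries. VIM, CD44 and FOSL2 carried that difference in the sum, while FN1 and NT5E had the higher means in SPARK-ON cells (in DMSO 124.5 against 82.8 CPM, and 81.6 against 31.01 CPM). Of 10 adrenergic markers 3 passed the filter. The 10 summed to 26.3 to 32.3 CPM in SPARK-ON libraries and 18.6 to 20.5 CPM in control libraries, mostly GATA2 (means of 22.8 and 12.9 CPM in DMSO), and ISL1 and CHGA were among those at 0 in every library. Levels are CPM, computed by edgeR from counts and TMM-scaled library sizes. Changes are log2 ratios with standard errors (SE) from edgeR's quasi-likelihood test, with Benjamini-Hochberg adjustment over all 16056 genes, and a gene was called at an adjusted p below 0.05. Whether replicates were separate cultures is not in the labels, and the p-values reflect the spread among these libraries, which may be technical.

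RefSeq promoter entries (GRCh38.p14) matched 29 of the 33 genes, with 40 start sites, and the 250 bases before each start were searched on both strands for 3 motifs. These were CCAAT, the NF-Y box often found beside sterol regulatory elements, CACGTG, the E-box bound by MYC family proteins with MAX, and TCACNCCAC, the core of a sterol regulatory element. CCAAT was present in 25 of the 40 promoters, against 32.0% of 35116 RefSeq promoters. CACGTG was present in 5 of the 40, belonging to INSIG1, ELOVL5, SCAP and SC5D, against 6.35% of all. TCACNCCAC was present only in the SREBF2 promoter among the 40, against 0.883% of all. A match is only a match of letters. The sequences below belong to members with large decreases and to HSD17B7, the member that was higher in SPARK-ON cells. Each is read 5′ to 3′ on the gene's strand and stops where an annotated exon of the gene begins, with motif matches in capitals and ATTGG marking CCAAT on the other strand.
SREBF2, chr22:41832855-41833078, plus strand: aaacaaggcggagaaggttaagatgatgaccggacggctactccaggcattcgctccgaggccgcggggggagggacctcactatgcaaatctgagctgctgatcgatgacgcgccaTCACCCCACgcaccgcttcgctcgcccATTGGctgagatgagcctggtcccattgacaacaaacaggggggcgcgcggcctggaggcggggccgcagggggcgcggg
MSMO1, chr4:165327419-165327622, plus strand: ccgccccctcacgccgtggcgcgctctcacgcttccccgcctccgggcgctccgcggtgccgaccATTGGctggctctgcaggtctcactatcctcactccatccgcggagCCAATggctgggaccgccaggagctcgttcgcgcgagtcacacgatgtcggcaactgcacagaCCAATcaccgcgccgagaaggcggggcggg
DHCR7, chr11:71448436-71448643, minus strand: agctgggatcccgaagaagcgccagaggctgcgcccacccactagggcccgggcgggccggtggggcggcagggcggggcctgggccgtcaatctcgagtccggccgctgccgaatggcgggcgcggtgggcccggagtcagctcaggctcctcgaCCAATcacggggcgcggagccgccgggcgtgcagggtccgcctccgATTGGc
SCD, chr10:100346983-100347123, plus strand: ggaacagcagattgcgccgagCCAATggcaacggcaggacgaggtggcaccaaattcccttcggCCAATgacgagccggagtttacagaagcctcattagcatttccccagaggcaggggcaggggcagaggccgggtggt
HSD17B7, chr1:162790452-162790701, plus strand: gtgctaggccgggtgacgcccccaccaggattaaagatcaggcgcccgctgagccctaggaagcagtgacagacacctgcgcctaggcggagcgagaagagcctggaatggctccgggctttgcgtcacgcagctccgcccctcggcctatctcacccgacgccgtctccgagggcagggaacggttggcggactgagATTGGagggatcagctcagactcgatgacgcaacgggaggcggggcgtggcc
For INSIG1 and ELOVL5, 30 bases around the E-box are shown, which lie in the first annotated exon of each gene.
INSIG1, chr7:155297811-155297840, plus strand: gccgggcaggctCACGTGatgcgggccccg
ELOVL5, chr6:53349144-53349173, minus strand: atttcccagagaCACGTGgaaccgaggggc
The SREBF2 stretch also lies in an exon of the antisense gene SREBF2-AS1, and the DHCR7 stretch lies inside the annotated gene, since longer DHCR7 transcripts start upstream of it. None of the 5 longer stretches holds CACGTG, and each holds at least 1 CCAAT. That holds for the stretches shown only: neither promoter of FADS2, which was also lower, had a CCAAT match, nor had the other DHCR7 start.

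The SPARK-ON line was compared with the control line in DMSO, before phase separation is induced. Of the 33 genes, 12 were lower and 1 was higher in SPARK-ON cells, and 20 were not called. Calls were common across the transcriptome, at 41.6% of all genes tested (20.4% lower and 21.1% higher), so the 13 calls are close to the background in number, while 12 of them go the same way. With libraries scaled by size alone the split was 3 higher (PMVK, HSD17B7 and FADS1) and 10 lower among the members, and 4262 higher and 2547 lower against 3395 and 3280 over all genes. The median log2 change was -0.135 over the 33 genes and 0.011 over all genes. By arm, 3 of 5 regulators, 6 of 19 sterol genes and 3 of 9 fatty acid genes were lower, and the only higher gene was the sterol gene HSD17B7. The libraries of the lines did not overlap for 14 lower and 2 higher members, against 24.56% lower and 26.26% higher of all genes. Separation without overlap was thus common over all genes. In RNA from whole cultures, fewer expressing cells and less RNA per cell cannot be told apart.

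With lenalidomide in both lines the comparison is between other libraries of the same lines. The estimate of spread was shared with the DMSO libraries, so its p-values are not independent of them. There 12 members were again lower and 1 higher, against 39.4% of all genes called (19.7% in each direction), and the median log2 change was -0.195 (0.015 over all genes). Scaling by size alone gave 3 higher (HSD17B7, FASN and FADS1) and 12 lower members, and 4045 higher and 2396 lower genes in place of 3165 and 3169. Of the 13 members called in DMSO and the 13 called under lenalidomide, 11 were shared and had the same direction, 84.6% of each list. Over all genes, 5235 were shared in the same direction, 78.4% of the DMSO calls and 82.7% of the lenalidomide calls. With lenalidomide the lines did not overlap for 16 lower and 2 higher members, against 29.25% lower and 30.37% higher of all genes.

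**Figure D1:**
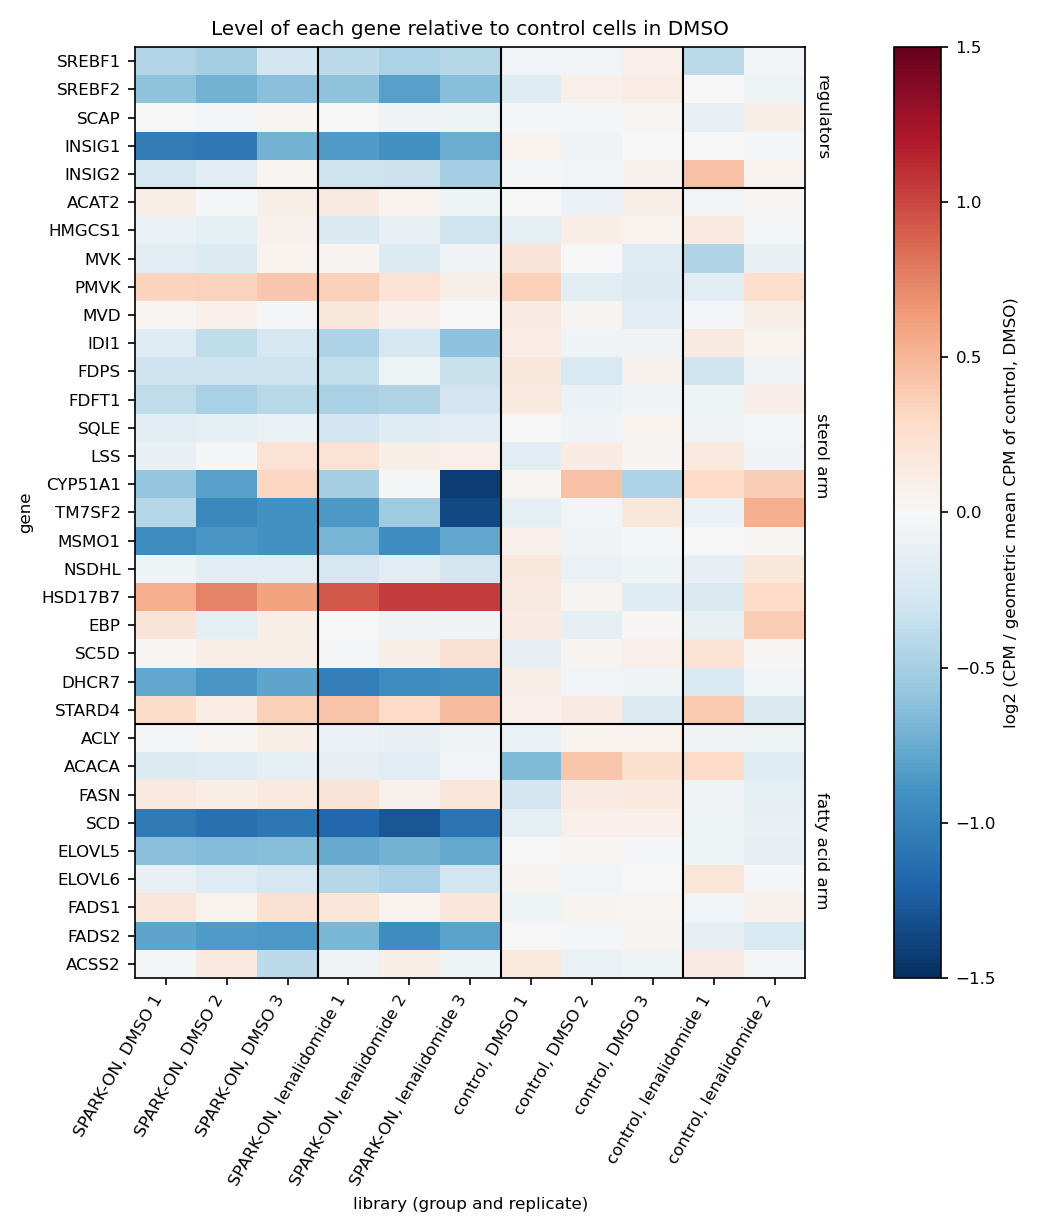
Log2 ratio of each gene's CPM in each of the 11 libraries (columns) to the geometric mean of the control libraries in DMSO, with the 33 genes in rows by arm. Blue is lower and red is higher: INSIG1, MSMO1, DHCR7, SCD, ELOVL5 and FADS2 are blue in all 6 SPARK-ON libraries, and HSD17B7 is red in all 6.

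Among the regulators, INSIG1, SREBF2 and SREBF1 were lower in SPARK-ON cells in DMSO. INSIG1 (ENSG00000186480.13, chr7:155297776-155310235, plus strand), which retains the SCAP complex, had 25.3, 24.9 and 31.9 CPM in the SPARK-ON libraries in DMSO and 54.2, 50.5 and 52.1 CPM in the control libraries in DMSO. With lenalidomide it had 29.02, 27.8 and 31.2 CPM in SPARK-ON and 52.4 and 51.5 CPM in control cells. Every SPARK-ON library was below every control library. The level was 1.91-fold lower in DMSO (log2 change -0.93, SE 0.098, adjusted p = 4.39e-07) and 1.78-fold lower with lenalidomide (log2 change -0.83, SE 0.11, adjusted p = 8.33e-06).

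SREBF2 (ENSG00000198911.12, chr22:41833079-41907308, plus strand), the factor that chiefly drives the sterol arm, had 72.7, 67.4 and 71.4 CPM in SPARK-ON and 97.1, 116.5 and 119 CPM in control cells in DMSO. With lenalidomide the values were 72.7, 62.9 and 70.9 CPM and 111 and 104 CPM. The lines did not overlap in either condition, and the log2 changes were -0.65 in DMSO (SE 0.088, adjusted p = 8.35e-06) and -0.65 with lenalidomide (SE 0.098, adjusted p = 3.99e-05). SREBF1, the factor that chiefly drives the fatty acid arm, had 72.8, 70.3 and 81.03 CPM in SPARK-ON and 96.3, 96.1 and 105 CPM in control cells in DMSO, with no overlap (log2 change -0.41, SE 0.090, adjusted p = 0.0014). With lenalidomide it had 75.5, 71.2 and 73.7 CPM in SPARK-ON and 75.4 and 96.1 CPM in control cells. There the groups overlapped, since control replicate 1 lay within the SPARK-ON values, and the test was not passed (log2 change -0.22, SE 0.10, adjusted p = 0.0909). The value turned on which of the 2 control libraries was kept: it was -0.39 without replicate 1 (adjusted p = 0.0101) and -0.04 without replicate 2 (adjusted p = 0.810).

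INSIG2, the second retention protein, was not called in DMSO (log2 change -0.13, SE 0.12, adjusted p = 0.434) but was lower with lenalidomide (log2 change -0.62, SE 0.14, adjusted p = 0.00172), a call lost without control lenalidomide replicate 1 (adjusted p = 0.0570). SCAP, the escort protein, was not called, with log2 changes of -0.004 in DMSO (SE 0.069, adjusted p = 0.973) and -0.04 with lenalidomide (SE 0.078, adjusted p = 0.756).

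In the sterol arm the largest decreases in DMSO were late in the pathway. MSMO1 (ENSG00000052802.13, chr4:165327623-165343160, plus strand), the methyl sterol oxidase that removes methyl groups after lanosterol, had 23.5, 24.4 and 23.8 CPM in SPARK-ON and 47, 43.01 and 44.05 CPM in control cells in DMSO. With lenalidomide it had 27.5, 23.4 and 26.03 CPM and 44.6 and 45.1 CPM. The lines were far apart in both conditions, 1.87-fold in DMSO (log2 change -0.91, SE 0.088, adjusted p = 1.59e-07) and 1.75-fold with lenalidomide (log2 change -0.81, SE 0.099, adjusted p = 3.36e-06). DHCR7 (ENSG00000172893.18, chr11:71428193-71452868, minus strand), the reductase that makes cholesterol from dehydrocholesterol, had 53.3, 49.8 and 52.8 CPM in SPARK-ON and 97.2, 89.1 and 87.9 CPM in control cells in DMSO, and 45.01, 47.4 and 48.7 CPM and 77.95 and 88.9 CPM with lenalidomide. It was lower in every SPARK-ON library than in any control library (log2 change -0.81, SE 0.080, adjusted p = 1.89e-07 in DMSO, and log2 change -0.83, SE 0.090, adjusted p = 7.92e-07 with lenalidomide).

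FDFT1, squalene synthase, showed a smaller step. It had 53.04, 49.3 and 51.8 CPM in SPARK-ON and 76.7, 65.3 and 66.4 CPM in control cells in DMSO, and 49.2, 50.8 and 56.8 CPM and 66.2 and 73.97 CPM with lenalidomide. The lines did not overlap and the decrease was 1.35-fold in DMSO (log2 change -0.43, SE 0.088, adjusted p = 0.000633) and 1.35-fold with lenalidomide (adjusted p = 0.00199). IDI1, the isomerase that supplies dimethylallyl diphosphate, had 38.6, 34.05 and 37.1 CPM in SPARK-ON and 47.7, 42.5 and 42.6 CPM in control cells in DMSO, and 32.2, 36.8 and 28.8 CPM and 48.4 and 45.7 CPM with lenalidomide. It was lower in both conditions (log2 change -0.27, SE 0.096, adjusted p = 0.0298 in DMSO, and log2 change -0.52, SE 0.11, adjusted p = 0.00101 with lenalidomide). The DMSO call of IDI1 was lost when libraries were scaled by size alone (adjusted p = 0.140), and without SPARK-ON DMSO replicate 2 (0.132), SPARK-ON DMSO replicate 3 (0.0669) or control DMSO replicate 1 (0.0602).

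TM7SF2, a sterol reductase of low expression, had 3.36, 2.31 and 2.403 CPM in SPARK-ON and 4.12, 4.402 and 5.07 CPM in control cells in DMSO, and 2.48, 3.12 and 1.76 CPM and 4.24 and 6.599 CPM with lenalidomide. The lines did not overlap in either condition, with wide errors (log2 change -0.75, SE 0.25, adjusted p = 0.0197 in DMSO, and log2 change -1.09, SE 0.28, adjusted p = 0.00437 with lenalidomide). Its DMSO call was lost without SPARK-ON DMSO replicate 2 (adjusted p = 0.0772) or 3 (0.0791) or control DMSO replicate 3 (0.0682), and its lenalidomide call without control lenalidomide replicate 2 (0.111). FDPS, farnesyl diphosphate synthase, was called lower in DMSO (log2 change -0.32, SE 0.12, adjusted p = 0.0337) but not with lenalidomide (log2 change -0.08, SE 0.13, adjusted p = 0.676). The FDPS call was lost under library size scaling (adjusted p = 0.116) and in DESeq2 (0.0595), and without each DMSO library in turn except control replicate 2 (0.0797 to 0.0923).

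HSD17B7 (ENSG00000132196.16, chr1:162790702-162812817, plus strand), a keto-reductase of sterol demethylation that works in the same step sequence as MSMO1 and NSDHL, went the other way. It had 6.96, 7.98 and 7.26 CPM in SPARK-ON and 5.26, 4.94 and 4.21 CPM in control cells in DMSO, and 9.09, 9.91 and 9.86 CPM and 4.11 and 5.85 CPM with lenalidomide. All SPARK-ON values were above all control values, 1.54-fold in DMSO (log2 change 0.62, SE 0.17, adjusted p = 0.00584) and 1.91-fold with lenalidomide (log2 change 0.94, SE 0.19, adjusted p = 0.000752). Its counts per library lay between 65 and 162. The gene has a pseudogene copy, HSD17B7P2, listed at a mean of 0.232 to 0.556 CPM in the 4 groups, and reads could be split between the copies.

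SQLE, squalene epoxidase and the sterol gene with the highest level per length, had 147, 149.6 and 154 CPM in SPARK-ON and 165, 159 and 172 CPM in control cells in DMSO, and 136, 146 and 148 CPM and 159 and 161 CPM with lenalidomide. The lines did not overlap in either condition, a separation that 24.56% of all genes showed in this direction in DMSO and 29.25% with lenalidomide. The step was small and did not pass the test (log2 change -0.14, SE 0.067, adjusted p = 0.11 in DMSO, and log2 change -0.16, SE 0.075, adjusted p = 0.097 with lenalidomide). The 12 sterol genes not called in DMSO, SQLE among them, had log2 changes between -0.29 (CYP51A1) and 0.34 (PMVK, phosphomevalonate kinase, adjusted p = 0.0599). They include the early enzymes ACAT2 (0.06), HMGCS1 (-0.06), MVK (-0.10) and MVD (0.02), the lanosterol cyclase LSS (0.04), the late enzymes NSDHL (-0.14), EBP (0.05) and SC5D (0.07), and the sterol carrier STARD4 (0.25). None of these was called with lenalidomide either.

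The level of CYP51A1, the lanosterol demethylase, is uncertain. Its counts were 5 to 48 per library, and 79.4% of its annotated exon bases are shared on the same strand with ENSG00000285772, which is listed at 0 in every library. Exons of ACAT2, FDPS, IDI1 and HMGCS1 overlap genes on the opposite strand over 43.1%, 18.6%, 14.8% and 14.9% of their length, and the sources used here do not give the strand setting of the counting.

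**Figure D2:**
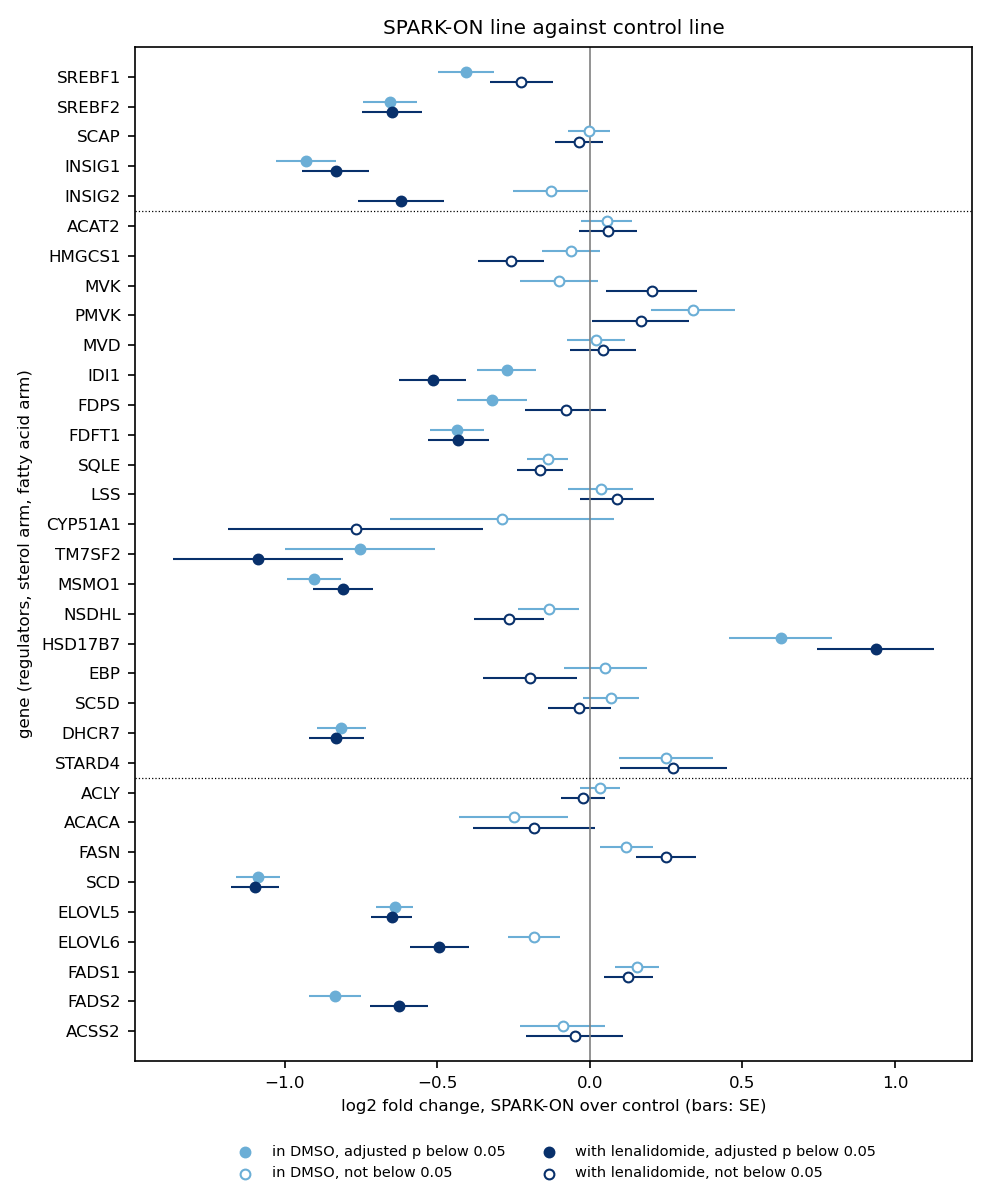
Log2 fold change of SPARK-ON over control cells for each of the 33 genes, in DMSO (light) and with lenalidomide (dark), with bars for the SE and filled points for an adjusted p below 0.05. Filled points lie left of 0 except those of HSD17B7, and 11 genes are filled in both conditions.

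In the fatty acid arm the desaturases SCD and FADS2 and the elongase ELOVL5 were lower in SPARK-ON cells, whereas the enzymes that make palmitate were not called. SCD (ENSG00000099194.6, chr10:100347124-100364834, plus strand), which puts the first double bond into saturated fatty acids, had 394.5, 378 and 389 CPM in SPARK-ON and 740.3, 865 and 864 CPM in control cells in DMSO. With lenalidomide the values were 363, 336 and 382 CPM and 783.5 and 758 CPM. This was the largest decrease of the 33 genes in DMSO, 2.13-fold (log2 change -1.09, SE 0.073, adjusted p = 9.54e-10), and it was 2.14-fold with lenalidomide (log2 change -1.10, SE 0.080, adjusted p = 3.91e-09). All SPARK-ON values were below all control values.

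FADS2, the desaturase that opens the polyunsaturated route, had 33.4, 31.9 and 31.8 CPM in SPARK-ON and 57.6, 56.3 and 59.2 CPM in control cells in DMSO, and 35.8, 30.3 and 32.95 CPM and 52.8 and 49.2 CPM with lenalidomide. It was lower without overlap in both conditions (log2 change -0.83, SE 0.085, adjusted p = 2.64e-07 in DMSO, and log2 change -0.62, SE 0.095, adjusted p = 4.22e-05 with lenalidomide). ELOVL5 (ENSG00000012660.14, chr6:53267398-53349179, minus strand), which elongates polyunsaturated fatty acids, had 221, 216 and 218 CPM in SPARK-ON and 338.5, 348 and 334 CPM in control cells in DMSO, and 202, 208 and 199.7 CPM and 325 and 312 CPM with lenalidomide. Its decrease was 1.56-fold in DMSO (log2 change -0.64, SE 0.061, adjusted p = 1.24e-07) and 1.57-fold with lenalidomide (log2 change -0.65, SE 0.068, adjusted p = 4.90e-07). FADS1, the desaturase next to FADS2 on the chromosome and in the route, was not called (log2 change 0.15, SE 0.072, adjusted p = 0.0945 in DMSO), although its DMSO groups did not overlap and SPARK-ON values were the higher ones. FADS1 and FADS2 exons overlap by 490 bases on opposite strands. ELOVL6, which elongates palmitate, was not called in DMSO (log2 change -0.18, SE 0.085, adjusted p = 0.0941) and was lower with lenalidomide (log2 change -0.49, SE 0.096, adjusted p = 0.00048).

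FASN, fatty acid synthase, had 1088, 1052 and 1089 CPM in SPARK-ON and 813, 1074 and 1086 CPM in control cells in DMSO, and 1127, 1031 and 1116 CPM and 944 and 893 CPM with lenalidomide. The DMSO groups overlapped (log2 change 0.12, SE 0.087, adjusted p = 0.294). With lenalidomide the SPARK-ON values were all above the control values, and the test was narrowly missed (log2 change 0.25, SE 0.098, adjusted p = 0.052). FASN passed there in 8 of the 18 alternatives and not in the others, with log2 changes of 0.204 to 0.353 over all of them. It passed in the fit of only the groups compared (adjusted p = 0.00657) and without control DMSO replicate 1 (0.000442). That library is not part of the comparison. Its omission left the log2 change at 0.25 and changed only the estimate of spread. ACLY, which makes cytosolic acetyl-CoA, and ACSS2, which makes it from acetate, had log2 changes of 0.03 and -0.09 in DMSO, and neither was called.

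ACACA, the carboxylase that makes malonyl-CoA, is described here because its values were seen to spread most within control cells in DMSO. It had 99.7, 211 and 187 CPM in control cells in DMSO and 192 and 139 CPM in control cells with lenalidomide, but 137, 139 and 143 CPM and 145, 140 and 154 CPM in SPARK-ON cells. Control DMSO replicate 1 had the lowest ACACA, FASN and SCD of its group. Control lenalidomide replicate 2, on the same side of the third principal component, had the lower ACACA, FASN and SCD of its pair. ACACA was not called between the lines (log2 change -0.25, SE 0.18, adjusted p = 0.286 in DMSO). Over all alternatives, omission of control DMSO replicate 1 among them, the log2 change between the lines in DMSO was -0.014 to 0.208 for FASN. For SCD it was -1.169 to -0.999. ACACA was not followed singly there, and what sets control DMSO replicate 1 apart was not tested.

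Of 4 adipocyte markers, 2 passed the filter. Their summed level, mostly FABP4, was 0.882 to 1.68 CPM in SPARK-ON libraries and 3.87 to 4.83 CPM in control libraries, and ADIPOQ was at 0 in every library. The mesenchymal markers had a lower sum in SPARK-ON libraries and the adrenergic markers a higher sum, with single genes going both ways, as given above. VIM had means of 521 CPM in SPARK-ON and 1207 CPM in control cells in DMSO. The part of these markers in the differences was not tested.

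**Figure D3:**
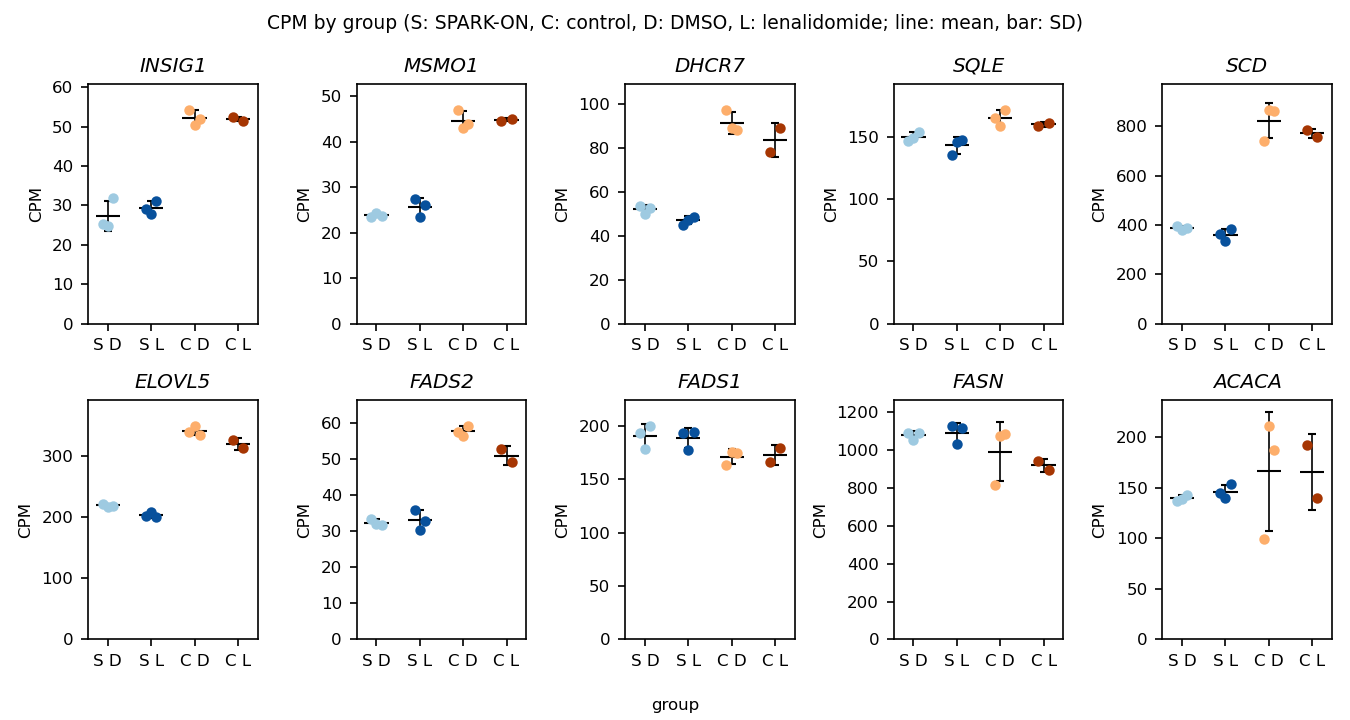
CPM of 10 genes in every library (points) with the group mean (line) and SD (bar), for SPARK-ON (S) and control (C) cells in DMSO (D) or lenalidomide (L), on axes that start at 0. INSIG1, MSMO1, DHCR7, SCD, ELOVL5 and FADS2 separate by line, and ACACA spreads from 99.7 to 211 CPM within control cells in DMSO.

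Summed over its 19 genes, the sterol arm had 663 ± 17 CPM in SPARK-ON cells (SD, n = 3) and 762 ± 25 CPM in control cells (SD, n = 3) in DMSO, and 648 ± 7.3 CPM (SD, n = 3) and 758 ± 25 CPM (SD, n = 2) with lenalidomide. The fatty acid arm had 2540 ± 44 CPM and 3043 ± 314 CPM in DMSO, and 2477 ± 96 CPM and 2876 ± 105 CPM with lenalidomide, in the same order and with the same n. In both arms every SPARK-ON library lay below every control library. Without SCD the fatty acid sums overlapped, at 2153 ± 37 CPM in SPARK-ON and 2220 ± 242 CPM in control cells in DMSO. The ratio of the fatty acid sum to the sterol sum also overlapped between the lines, at 3.83 ± 0.040 in SPARK-ON and 4.01 ± 0.53 in control cells in DMSO, and 3.83 ± 0.19 and 3.80 ± 0.27 with lenalidomide. FASN made up 42.4% ± 0.24 of the fatty acid sum in the SPARK-ON line and 32.4% ± 1.9 in the control line in DMSO. These sums were chosen members added together and carry no test.

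Per kilobase of annotated exon, the scale used here to compare genes with each other, the order of the most abundant genes differed between the lines. The length is the union of all annotated exons of a gene, which can exceed the transcript expressed, so the order between genes is approximate. In control cells in DMSO, SCD led at 154 ± 13 CPM per kilobase, followed by FASN (106 ± 16), ELOVL5 (89.3 ± 1.9), ACLY (80.9 ± 4.8) and SQLE (38.4 ± 1.5), all SD over 3 libraries. FASN and ELOVL5 did not differ beyond their spread. In SPARK-ON cells in DMSO, FASN led at 115 ± 2.3, followed by ACLY (82.7 ± 3.0), SCD (72.2 ± 1.6), ELOVL5 (57.3 ± 0.65) and SQLE (34.9 ± 0.84), and these 5 did not overlap within their SD. With lenalidomide the same order held within each line. The lowest were HSD17B7, TM7SF2 and CYP51A1, with CYP51A1 at 0.455 ± 0.20 in SPARK-ON and 0.569 ± 0.17 in control cells in DMSO. The rank of CYP51A1 is as uncertain as its level, since most of its exon bases are shared with another gene.

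**Figure D4:**
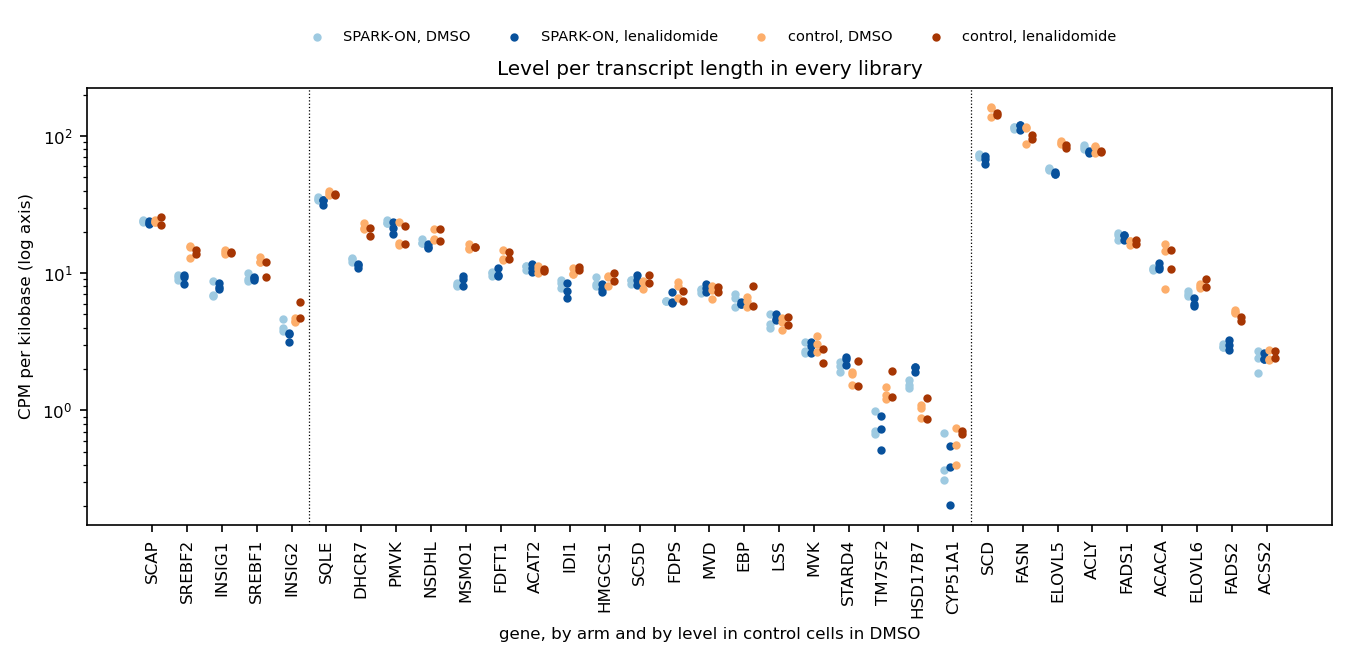
CPM per kilobase of annotated exon for the 33 genes in every library, on a log axis, ordered within each arm by the level in control cells in DMSO. SCD, FASN, ELOVL5 and ACLY stand above all sterol genes, SCD changes rank between the lines, and CYP51A1, whose level is uncertain, is lowest.

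Lenalidomide was compared with DMSO within each line. In SPARK-ON cells, where it induces n-Myc phase separation by the study's design, none of the 33 genes was called by edgeR, and 2 had an unadjusted p below 0.05, as did 860 of all 16056 genes. Across the transcriptome 11 genes were called (0.0685%), all higher. HSD17B7 was the member with the largest positive value (log2 change 0.38, SE 0.16, adjusted p = 0.881), and its 3 lenalidomide values lay above its 3 DMSO values. ELOVL6 had the smallest p (log2 change -0.23, SE 0.088, adjusted p = 0.825), with its lenalidomide values below its DMSO values. Such separation held for 1 higher and 6 lower members, against 9.616% higher and 8.165% lower of all genes. Medians were -0.04 for the regulators, -0.01 for the sterol arm and -0.02 for the fatty acid arm, and 0.01 over all genes. SCD (-0.10, SE 0.072), INSIG1 (0.09, SE 0.10), MSMO1 (0.10, SE 0.093), FASN (0.02, SE 0.087) and SREBF2 (-0.04, SE 0.090) were likewise not called.

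The SPARK-ON libraries varied less than the control libraries, with a biological coefficient of variation of 4.71% among their 6 libraries against 12.9% among the 5 of the control line. Fitted on the 6 SPARK-ON libraries alone, 381 genes were called (2.60%), and again none of the 33. ELOVL6 came closest (log2 change -0.24, SE 0.071, adjusted p = 0.0507), followed by ACLY (-0.13, SE 0.040, adjusted p = 0.0718). In that fit 7 members had an unadjusted p below 0.05, against 14.4% of all genes. Of these INSIG2, DHCR7, ACLY, SCD, ELOVL5 and ELOVL6 had negative values and HSD17B7 a positive value. DESeq2 called 45 genes (0.321%), and neither it nor limma-voom called a member.

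In control cells without SPARK-ON, which test lenalidomide itself, none of the 33 genes was called by edgeR, DESeq2 (0.144% of its genes) or limma-voom. None had an unadjusted p below 0.05 in edgeR, against 774 of all 16056 genes. The 2 lenalidomide libraries of this line lay on opposite sides of the third principal component, which limits what could be detected. Over all genes 7 were called (0.0436%). The largest values were 0.29 (CYP51A1, SE 0.39) and -0.28 (MVK, SE 0.15). Medians were -0.01 for the regulators, 0.04 for the sterol arm and -0.07 for the fatty acid arm.

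The difference between the lines in the lenalidomide response was tested directly. No gene was called by edgeR, member or not, while DESeq2 called 3 genes (0.00895%), none of them a member. At an unadjusted p below 0.05 there were 669 genes, 2 of them members. INSIG2 differed by -0.49 (SE 0.19, adjusted p = 0.9999), from -0.24 in SPARK-ON and 0.25 in control cells. ELOVL6 differed by -0.31 (SE 0.13, adjusted p = 0.9999), from -0.23 and 0.09. The control line had 2 libraries with lenalidomide, which widens these errors. SCD, for example, had a difference of -0.01 (SE 0.11).

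**Figure D5:**
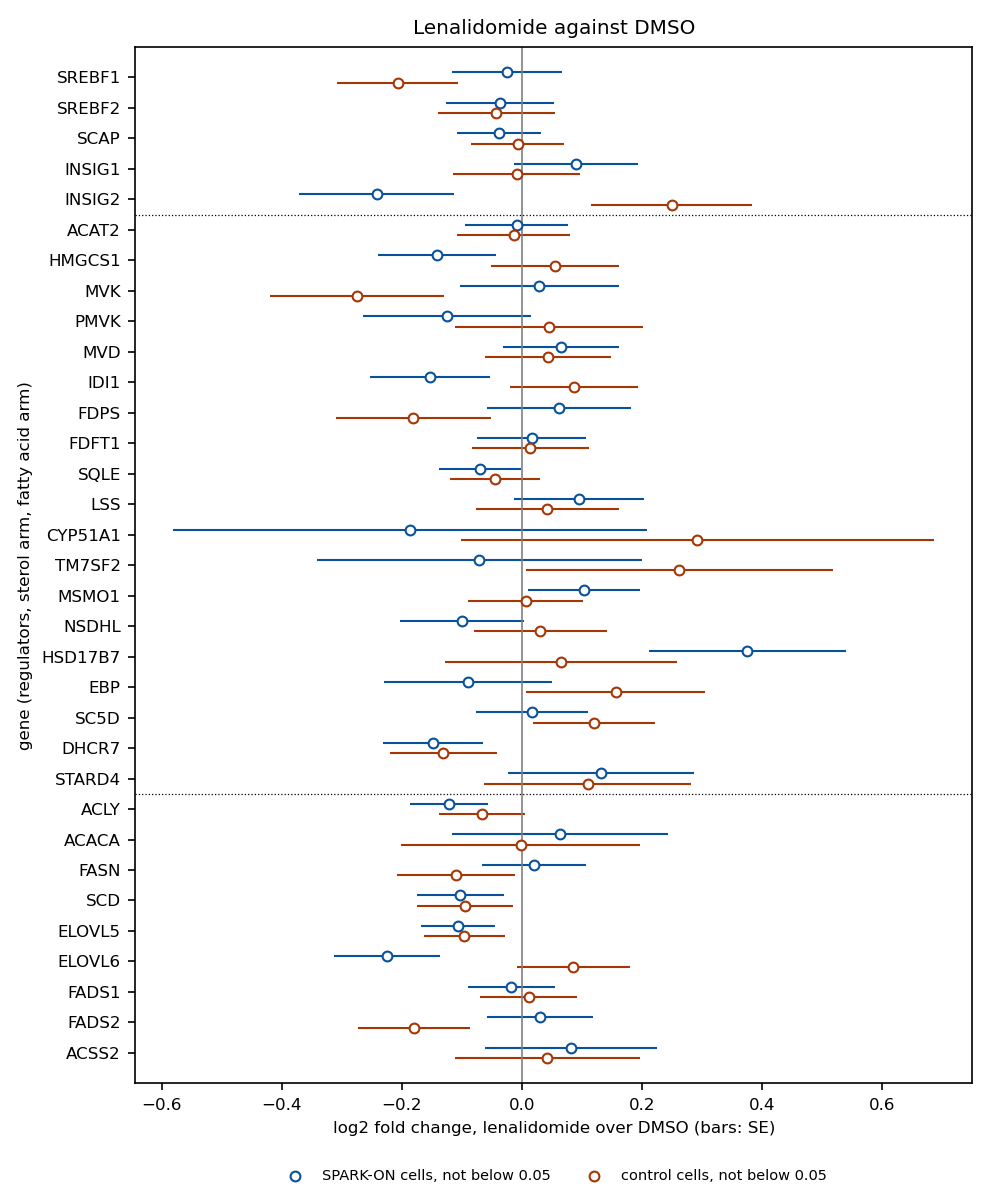
Log2 fold change of lenalidomide over DMSO for the 33 genes in SPARK-ON cells (blue) and control cells (brown), with bars for the SE. All points are open, since no gene had an adjusted p below 0.05. The points farthest right are HSD17B7 in SPARK-ON cells and CYP51A1 in control cells.

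Other genes of lipid metabolism, 86 in 5 lists, were followed for context, and 76 were tested. Between the lines in DMSO, 14 were higher and 21 lower in SPARK-ON cells, and with lenalidomide 15 were higher and 20 lower. Both totals, 35 of 76, are near the shares of all genes called, 41.6% and 39.4%, and the same background holds for the counts by list. None was called for lenalidomide in either line or for the difference between lines. Of 13 genes of SREBP processing and turnover, 5 were lower and 1 higher in DMSO. PAQR3, a Golgi anchor of the SCAP complex, had a mean of 47.8 CPM in SPARK-ON and 67.1 CPM in control cells (log2 change -0.49, SE 0.084, adjusted p = 0.000127). RNF139, a ubiquitin ligase of the endoplasmic reticulum, was lower (-0.31, SE 0.080, adjusted p = 0.00434) and ERLIN2, an endoplasmic reticulum lipid raft protein, was higher (0.46, SE 0.077, adjusted p = 0.000106).

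Of 9 other isoprenoid and sterol synthesis genes, EBPL (-0.38, SE 0.099) and the ubiquinone enzyme COQ2 (-0.33, SE 0.094) were lower and the dolichol enzyme DHDDS (0.22, SE 0.083) was higher. Sterol uptake, transport and esterification had 6 higher and 6 lower of 19 tested in DMSO, and 8 higher and 5 lower with lenalidomide. The sterol transporter GRAMD1B had 21.6 ± 1.5 CPM in SPARK-ON and 2.03 ± 0.35 CPM in control cells in DMSO (SD, n = 3; log2 change 3.42, SE 0.17, adjusted p = 1.59e-11), while its relative GRAMD1A fell from 87.8 ± 1.5 CPM to 40.2 ± 0.060 CPM (log2 change -1.13, SE 0.078, adjusted p = 1.74e-09). The lipoprotein receptor VLDLR had 59.7 ± 3.2 CPM in SPARK-ON and 135.8 ± 8.8 CPM in control cells (log2 change -1.19, SE 0.082, adjusted p = 1.63e-09).

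Of 19 tested genes of other fatty acid synthesis and desaturation, 6 were lower and 2 higher. SCD5, a second stearoyl-CoA desaturase, had 5.21 ± 1.4 CPM in SPARK-ON and 22.02 ± 1.5 CPM in control cells (log2 change -2.09, SE 0.16, adjusted p = 7.57e-09), the same direction as SCD. The elongation enzymes HACD2 (-0.62, SE 0.073) and TECR (-0.62, SE 0.083), which complete the cycle that ELOVL5 starts, were lower too. Of 16 tested genes of fatty acid activation and glycerolipid synthesis, 4 were higher and 2 lower. DGAT2, which makes triglyceride, had 26.2 ± 2.6 CPM in SPARK-ON and 8.87 ± 0.97 CPM in control cells (log2 change 1.56, SE 0.13, adjusted p = 2.72e-08). The phosphatidylcholine enzyme PCYT1A was higher by 0.32 (SE 0.070, adjusted p = 0.00134). ACSL5, an acyl-CoA synthetase, had 1.95 ± 0.58 CPM in SPARK-ON and 0.117 ± 0.16 CPM in control cells (log2 change 4.08, SE 0.67, adjusted p = 7.74e-05). The control mean lies below the level that 3 counts give in these libraries (0.140 to 0.174 CPM), so the size of this change is uncertain.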

How the data were processed

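RNA of 11 libraries in 4 groups was analysed from a table of whole-number counts per gene, deposited by the authors without normalization. The submitters' processing notes name FastQC, fastp, HTSeq, edgeR and hg38. Versions, the aligner, the annotation release and strandedness are not given in the sources used here. Another 3 columns fit no label and were left out, so baseline SH-EP cells were not analysed here. The genes and lists were chosen with earlier results of these data known.

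The analysis used edgeR 4.0.16 in R 4.3.3, with filterByExpr (minimum count 10), TMM scaling and a one-way layout of 4 groups (7 residual degrees of freedom, common biological coefficient of variation 9.40%). The procedure was run on simulated counts with the same spread in every group, so the unequal spread of the lines was not covered. The named-gene rule gave values in every library for SREBF1, SREBF2, INSIG1, SQLE, FASN and SCD, and for up to 6 members per arm with the smallest p among those called in DMSO. For other lists it named up to 3 called genes. ACACA falls outside it.

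Identifiers matched gene names for 61415 of 61533 genes. Positions and exon lengths are from GENCODE 29 on GRCh38, matched without identifier versions. Alternatives were RLE and library size scaling, no filter, DESeq2 1.42.0, voom in limma 3.58.1, a fit of just the groups compared, a replicate block and omission of each library. Figures were drawn with matplotlib 3.10.9. Whether samples that share a replicate number were handled together could not be settled from their deviations.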

Additional observations from a re-analysis of the deposited data

How the results depend on the processing

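Of the 13 members called in DMSO, 10 were called under every alternative, and 11 of the 13 called under lenalidomide, the exceptions being IDI1, FDPS and TM7SF2, and INSIG2 and TM7SF2. For the 17 members followed singly (those with values in every library, FDPS, INSIG2 and ELOVL6), 17 values lost their call over all settings, 11 gained it and no called value changed sign. Leaving out single libraries gave 10 to 14 called members in DMSO and 12 to 18 under lenalidomide, among 5576 to 6953 and 5055 to 7379 genes. Arm medians were followed only under RLE and library size scaling, without the filter and with single libraries left out. There they kept their sign between the lines. In DMSO they were -0.12 to -0.01 for the sterol arm and -0.22 to -0.09 for the fatty acid arm, and with lenalidomide -0.18 to -0.06 and -0.40 to -0.01. The fatty acid median with lenalidomide moved beyond its spread between replicates in 3 of these settings, and each of the others given here in 1. Library size scaling raised the median of all genes by 0.09 in DMSO and 0.11 with lenalidomide.

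For lenalidomide no member was called under any alternative. Over all genes in SPARK-ON cells, the 11 calls became 35 without the filter, 45 in DESeq2 and 381 with only the groups compared, and 0 to 67 when single libraries were left out, the highest without control DMSO replicate 1 and 0 without SPARK-ON lenalidomide replicate 2 or any SPARK-ON DMSO library. In control cells the 7 calls became 27, 24 and 0 in the same order, and 0 to 21 with single libraries left out, the highest again without control DMSO replicate 1 and 0 without either control lenalidomide library. The difference between lines gave 1 gene without the filter, 3 in DESeq2 and 0 to 0 with libraries left out. The cause was not tested. With the replicate block, lenalidomide gave 2 calls in SPARK-ON cells, 1 in the control line, and FDPS lost its call in DMSO (adjusted p = 0.0603). Of 15 pairs with the same replicate number none correlated above 0.1 in their deviations from the group means (-0.18 to 0.04). This cannot settle whether such samples were handled together, since in a group of 2 libraries the deviations are opposite by construction. The 6614671 counts of SPARK-ON lenalidomide replicate 3 and the 2 control lenalidomide libraries limit what could be detected.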
